A study of Mus musculus with 10 samples.

Results

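Clec11a, which encodes the secreted growth factor osteolectin, was followed across the cells of the mouse supraspinatus tendon enthesis together with Itga11 and Itgb1, which encode the subunits of its receptor. The 3 genes were found by symbol. Each matched exactly 1 of the 31053 genes listed in every droplet library, and the same symbols were read from the 55453 rows of every plate file. Clec11a was highest in tendon fibroblast-like cells at all 3 droplet ages and was lower there at P56 than at P11. Itga11 was highest in connective-tissue fibroblast-like cells and differed little between P11 and P56 in the tendon and connective-tissue classes taken whole, although not in every cluster. Itgb1 was present in every class of at least 50 cells and was highest in mural-like cells at P56.

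Osteolectin is made by stromal and bone-forming cells and promotes osteogenic differentiation. Integrins are heterodimers of an alpha and a beta subunit that span the membrane. The Itga11 product pairs with the Itgb1 product to form integrin alpha 11 beta 1, a receptor of fibroblasts and other mesenchymal cells for fibrillar collagen, which also binds osteolectin and signals to the Wnt pathway. Itgb1 is shared with many other alpha subunits, so its level alone does not report that receptor. The enthesis joins tendon to bone through fibrocartilage that mineralises after birth, and holds tendon fibroblasts, chondrocytes and mineral-forming cells side by side.

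The series holds 10 single-cell libraries, each age being 1 library of pooled entheses. The 3 droplet libraries came from whole entheses of C57BL/6 wild types aged 11, 18 or 56 days after birth (P11, P18, P56). Their cells were sorted for lack of Cd45, a leukocyte surface protein, and of DAPI, a stain of dead cells. Gli1CreERT;Ai14 mice, which received tamoxifen at P5 and P7, gave 7 plates of 96 wells, 1 each at P7, P11 and P14, then at P18 and P21, and last at P28 and P42. The protocol text does not list P14 among the ages, although a sample carries that label. In these mice a tamoxifen-dependent Cre made under control of Gli1, a Hedgehog pathway gene, switches on the red Ai14 reporter in the cells that express it and in their descendants. The P7 plate therefore has the age of the last dose, and the wording of the sort does not settle whether red cells were kept. Both assays read the 3′ end of transcripts.

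After filtering, the droplet libraries held 2882, 5163 and 4920 cells at P11, P18 and P56, and 86 to 96 wells of each plate were kept. Against the Cd45 sort, 498 cells at P11 and 3691 at P18 fell in immune classes, B-cell and granulocyte precursors among them, and none at P56. Mesenchymal-like cells, meaning the tendon, connective-tissue and lining fibroblast-like, chondrocyte-like and mineralising classes, numbered 2257, 1460 and 4130. Chondrocyte-like cells made up 261 of these at P11, 617 at P18 and none at P56. Of the markers used to name the classes, 8 of 8 tendon, 8 of 8 connective-tissue, 6 of 6 lining, 9 of 9 chondrocyte and 7 of 9 mineralising markers were at least 2-fold higher in the named cells than in the rest. Clusters were named by the same markers, so this is not an independent check. Of 10 listed chondrocyte markers, 9 were in the droplet files. Summed leukocyte markers in mesenchymal-like cells were 3.09, 18.9 and 0.498 CPM (counts scaled to a common library total) at the 3 ages, with 2 of the 4, Ptprc and Cd52, at 0 at P56. Xist, made by female cells, was at 750 CPM, 282 CPM and 0.343 CPM, and the sex of the pooled mice cannot be told apart from age. Pairs of droplet libraries shared 4 to 9 cell barcodes.

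In GRCm38, the build named mm10 in the submitters' processing notes, Clec11a lies on the minus strand of chromosome 7 from 44302687 to 44306902, with 4 exons in its principal transcript. Itga11 lies on the plus strand of chromosome 9 from 62677826 to 62783982, spanning 106 kb with 30 exons, and Itgb1 on the plus strand of chromosome 8 from 128685654 to 128733200, with 16 exons. In the GENCODE annotation no other gene overlapped any of them on either strand. The windows from 250 bases before to 50 after the RefSeq start, on build GRCm38.p6 at chr7:44306910-44307209, chr9:62677605-62677904 and chr8:128685404-128685703, are shown because the 3 genes differed in their cell classes. Each is written 5′ to 3′ on the strand of the gene, and capitals mark matches on either strand to any of 4 motifs. The first was the E-box, CANNTG, bound by helix-loop-helix factors such as the tendon factor Scleraxis. The next was the GC box, GGGCGG, a site of Sp-family factors found in many promoters. Another was the TATA box, written TATAAA, which positions the start of transcription. The last was the site TGTGGT, bound by Runx factors of bone and cartilage.
Clec11a: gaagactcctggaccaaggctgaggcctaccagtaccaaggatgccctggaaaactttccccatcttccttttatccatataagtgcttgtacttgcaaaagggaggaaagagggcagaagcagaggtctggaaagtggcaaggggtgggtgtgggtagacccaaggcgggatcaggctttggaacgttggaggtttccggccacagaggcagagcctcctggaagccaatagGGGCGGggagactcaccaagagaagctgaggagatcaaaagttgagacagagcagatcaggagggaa
Itga11: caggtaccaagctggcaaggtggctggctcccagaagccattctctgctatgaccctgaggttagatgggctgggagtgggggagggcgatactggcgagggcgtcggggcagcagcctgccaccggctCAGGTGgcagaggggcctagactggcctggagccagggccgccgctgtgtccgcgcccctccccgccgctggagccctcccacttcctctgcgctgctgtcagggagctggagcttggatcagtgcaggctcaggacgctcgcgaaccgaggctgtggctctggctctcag
Itgb1: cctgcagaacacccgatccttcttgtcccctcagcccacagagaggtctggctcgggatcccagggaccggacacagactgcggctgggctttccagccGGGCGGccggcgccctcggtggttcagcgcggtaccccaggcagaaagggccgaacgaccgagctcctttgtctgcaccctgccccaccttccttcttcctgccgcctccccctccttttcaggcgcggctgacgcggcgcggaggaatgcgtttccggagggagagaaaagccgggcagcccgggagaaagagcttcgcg

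The Clec11a window held 1 GC box, 17 bases before the RefSeq start, and the Itgb1 window 1 GC box, 151 bases before it. RefSeq and GENCODE place the start of Clec11a differently. Its window, from 44306910, lies wholly before the GENCODE start at 44306902. The Itga11 window held 1 E-box, CAGGTG, 121 bases before the start. No TATA box or Runx site was found in any of the 3, and no motifs overlapped. Of 32851 RefSeq windows of the same length, 72.3% held an E-box, 35.7% a GC box, 13.6% a TATA box and 16.8% a Runx site, so these matches are a description only. GC content was 54% for Clec11a, 68% for Itga11 and 67.3% for Itgb1, against a median of 52.7% over all windows.

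The first question was which cells carried each gene. Levels are counts summed over the cells of a class and given as CPM of that sum, with exact 95% Poisson intervals that cover counting error only. With 1 library per age no test between ages was possible, and a gene was called as rising or falling between ages only at 2-fold or more. Clec11a in tendon fibroblast-like cells was highest at P11, at 486 CPM (475 to 497). It was 287 CPM (269 to 306) by P18 and 229 CPM (221 to 238) by P56. The intervals of the 3 ages did not overlap. Chondrocyte-like cells were next, at 192 CPM at P11 and 183 CPM at P18, followed by mineralising cells at 141 CPM and 154 CPM. Connective-tissue fibroblast-like cells had 102, 82.9 and 87.2 CPM. The ratio of tendon to connective-tissue fibroblast-like cells was 4.78-fold at P11, 3.46-fold at P18 and 2.63-fold at P56, or 2.26, 1.79 and 1.39 on the log2 scale. The strict cell filter moved the P11 value to 2.86, and naming each cell by its own marker score moved the P18 value to 2.52.

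Outside these classes Clec11a was low. Lining fibroblast-like cells, which face the joint space and carry Prg4, had 6.69 CPM at P11 in 41 cells and 10.9 CPM at P56 in 509 cells, from 6 and 76 counts. With no doublets removed these levels were 10.6 CPM and 41.8 CPM. Endothelial-like cells had 6.00 CPM and 4.28 CPM, monocyte or macrophage-like cells 2.53 CPM and 1.40 CPM at P11 and P18, and mural-like cells 2.16 CPM and 1.34 CPM, from 1 and 2 counts. In 149 T or NK-like cells at P18 no count was seen, which allows up to 3.78 CPM at 3 counts. The 11 counts in B precursor-like cells at P11 all came from 1 of 51 cells, and the 5 counts in 18 neutrophil-like cells at P11 from 1 cell. Mesenchymal-like cells carried 99.6% of all Clec11a counts at P11, 97.9% at P18 and 99.7% at P56. Tendon fibroblast-like cells held 75.0% of the counts at P11 and 67.5% at P56 with 31.5% and 38.4% of the cells, whereas at P18 the chondrocyte-like class held 47.1% with 12.0% of the cells.

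**Figure D1:**
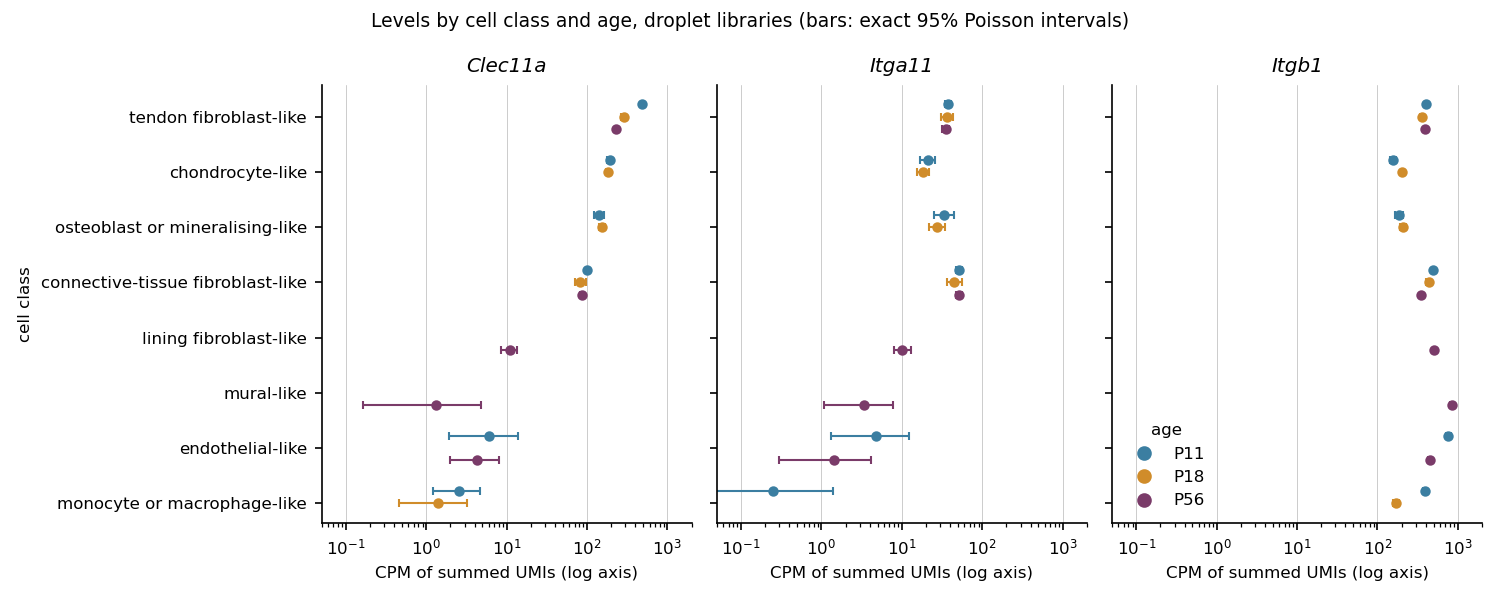
Levels of the 3 genes by cell class (rows) and age (colours) in the droplet libraries, as CPM of summed counts on a log axis with exact 95% Poisson intervals; classes of under 50 cells at an age and levels of 0 are not drawn. Clec11a falls from 486 CPM in tendon fibroblast-like cells at P11 to below 10 CPM in endothelial-like and mural-like cells, whereas the highest Itgb1 drawn is in endothelial-like cells at P11 and mural-like cells at P56.

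Shares of cells with a count, with every cell thinned to 2000 counts, gave the same order. Among tendon fibroblast-like cells Clec11a was detected in 56.7% at the first age (exact 95% binomial interval 53.4 to 60.0%). By P18 it was detected in 36.7% (31.5 to 42.2%), and by P56 in 33.1% (31.0 to 35.3%). It was detected in 30.9% and 29.9% of chondrocyte-like cells, and in 17.4%, 16.3% and 14.4% of connective-tissue fibroblast-like cells. The same share in endothelial-like cells, which serve as a background for free RNA, was 0 of 67 at P11, which allows up to 4.48%, and 1.15% of 348 at P56. Before thinning the shares in tendon fibroblast-like cells were 88.0%, 71.4% and 60.6%, at median depths of 15271, 9500 and 5418 counts per cell. Endothelial-like cells had median depths of 9655 and 4017.

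The second question was how the genes changed with age. Over all mesenchymal-like cells Clec11a was 276, 186 and 122 CPM in order of age. The log2 ratio of P56 to P11 was -1.18 (95% interval -1.24 to -1.13), which passed 2-fold. Of 12195 genes measured in these cells, 7.44% fell and 5.63% rose by 2-fold between those ages, and the median log2 ratio over them was 0.02. From P11 to P18 the ratio was -0.56 and did not pass, where 8.12% of genes fell, 4.99% rose and the median was -0.20. Weighting each cell equally gave a P56 to P11 ratio of -0.90, short of 2-fold.

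Within tendon fibroblast-like cells Clec11a fell 2.12-fold from P11 to P56, where 6.53% of 10014 genes fell and 10.1% rose. The ratio ranged from -1.29 to -0.82 on the log2 scale over 8 ways of filtering and naming the cells. It missed 2-fold with the lenient cell filter (-0.82), with no doublets removed (-0.88) and with each cell named by its own marker score (-0.93). In connective-tissue fibroblast-like cells the log2 ratio was -0.22 (-0.34 to -0.11), short of 2-fold, where 8.16% of genes fell and 4.13% rose. With the strict cell filter its direction turned, from 70.9 CPM at P11 to 104 CPM at P56. In chondrocyte-like cells the ratio of P18 to P11 was -0.07 (-0.20 to 0.06), and in mineralising cells 0.13 (-0.12 to 0.37).

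Different clusters made up the tendon class at each age, so clusters are named by their leading genes. At P11 most of its cells were in a cluster led by Mfap4, Cpz and Tnmd, the last a membrane protein of mature tendon cells, where Clec11a was 548 CPM. At P56 most were in a cluster led by Angptl7 at 215 CPM, and 374 cells were in a cluster led by Col22a1, a collagen of the myotendinous junction, at 299 CPM. A cluster led by Tnn, Barx2 and Gdf5, the last a joint-forming growth factor, held cells of all ages. In it Clec11a was 428 CPM in 171 cells at P11, 270 CPM in 313 cells at P18 and 160 CPM in 58 cells at P56, a log2 ratio of P56 to P11 of -1.42 (-1.77 to -1.09). Cycling tendon fibroblast-like cells at P11, led by Anln, had 175 CPM, below both other P11 clusters of the class. Summed cycling markers in the class were 240, 10.0 and 43.4 CPM at the 3 ages, and their part in the age difference was not tested.

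Itga11 had another order of classes. Connective-tissue fibroblast-like cells were highest at each age, with 51.6 CPM (47.8 to 55.7) in the youngest. Levels were 45.1 CPM (36.1 to 55.6) by P18 and 51.5 CPM (47.8 to 55.5) by P56. Tendon fibroblast-like cells followed with 37.3, 36.7 and 35.1 CPM, and mineralising cells with 33.8 CPM and 27.7 CPM. The intervals of connective-tissue and tendon fibroblast-like cells were apart at P11 and P56 and overlapped at P18. Chondrocyte-like cells had 21.0 CPM and 18.5 CPM. Lining fibroblast-like cells had 32.3 CPM at P11, from 29 counts in 41 cells, and 10.2 CPM at P56, a log2 ratio of -1.67 (-2.31 to -0.99). With no doublets removed, the only alternative that left at least 50 lining cells at both ages, that ratio was -0.16, from 20.7 to 18.5 CPM. Mural-like cells had 10.8 CPM and 3.34 CPM from 5 counts each, and endothelial-like cells 4.80 CPM and 1.43 CPM from 4 and 3 counts. Immune classes together held 1 count in 498 cells at P11 and 8 counts in 3691 cells at P18.

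Taken whole, the tendon and connective-tissue classes differed by no more than counting error in Itga11 between P11 and P56, although different clusters made them up. The log2 ratio of P56 to P11 was 0.00 (-0.16 to 0.15) in connective-tissue and -0.09 (-0.27 to 0.10) in tendon fibroblast-like cells. In the Tnn cluster, the only tendon cluster with at least 50 cells at all 3 ages, Itga11 was 37.7, 36.0 and 76.9 CPM, the last from 58 cells. Its log2 ratio of P56 to P11 there was 1.03 (0.45 to 1.58), just past 2-fold. The share of all genes that rose within this cluster was not counted, and in the whole tendon class it was 10.1%. Over all mesenchymal-like cells it was 40.5, 27.1 and 36.7 CPM, with a log2 ratio of P18 to P11 of -0.58 (-0.74 to -0.42). Within classes that ratio was -0.02 in tendon and -0.20 in connective-tissue fibroblast-like cells, -0.18 in chondrocyte-like and -0.29 in mineralising cells. Over 8 ways of filtering and naming the cells the tendon value ran from -0.53 to -0.02. The part of the differing class numbers in the mesenchymal-like value was not tested. From P11 to P18 in tendon fibroblast-like cells 5.16% of genes fell and 3.91% rose, and in connective-tissue fibroblast-like cells 2.9% and 1.45%.

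Itga11 also varied between clusters of one class. Among chondrocyte-like cells, the cluster led by Matn1, a cartilage matrilin, had 14.8 CPM at P11 and 10.8 CPM at P18. The cluster led by Msmp and Smoc1 had 35.7 CPM and 36.9 CPM, higher by 1.28 (0.63 to 1.93) and 1.77 (1.28 to 2.27) on the log2 scale. Clec11a differed little between those clusters, at 201 against 170 CPM at P11 and 180 against 189 CPM at P18. Among tendon fibroblast-like cells at P56, the Col22a1 cluster had 16.8 CPM of Itga11, the Angptl7 cluster 38.3 CPM and the Tnn cluster 76.9 CPM. Clec11a ran the other way over these 3 clusters, at 299, 215 and 160 CPM. At P11 the tendon clusters had the same order for both genes. The Mfap4, Tnn and Anln clusters had 548, 428 and 175 CPM of Clec11a and 39.8, 37.7 and 19.5 CPM of Itga11. Among connective-tissue fibroblast-like cells at P56, a cluster led by Ptx3 and Ptgs2, both induced in inflammation, had more of both genes than its neighbours, with 71.3 CPM of Itga11 and 139 CPM of Clec11a. The clusters led by Myoc and by Inmt had 41.6 and 54.5 CPM of Itga11 and 74.7 and 74.6 CPM of Clec11a.

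**Figure D2:**
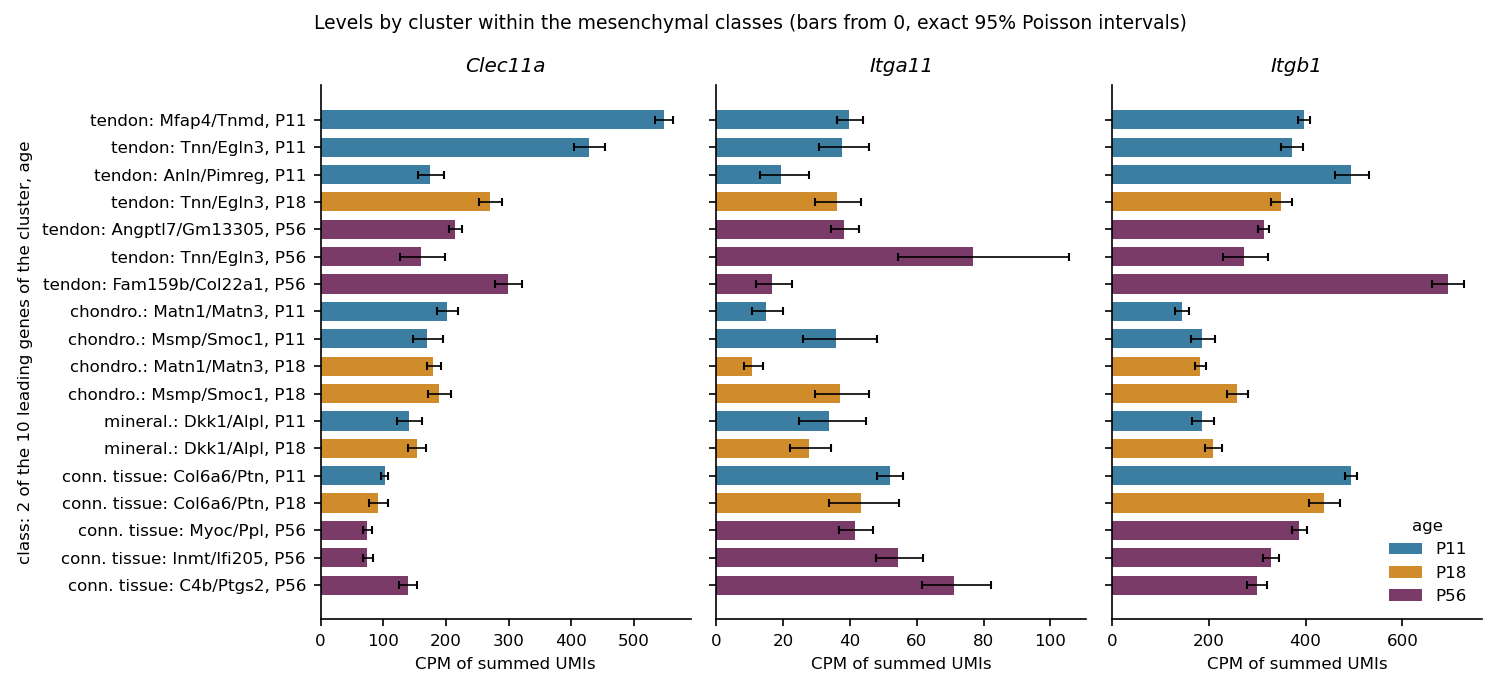
Levels of the 3 genes in each cluster of the tendon, chondrocyte, mineralising and connective-tissue classes with at least 50 cells at an age, as CPM of summed counts with exact 95% Poisson intervals; row labels name 2 of the leading genes of the cluster. Clec11a is highest in the Mfap4 and Tnn tendon clusters at P11 and lower in the Anln cluster of that age, Itga11 is low in the Matn1 and Col22a1 clusters, and Itgb1 peaks at 694 CPM in the Col22a1 cluster.

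Itgb1, the shared subunit, was highest in mural-like cells, at 946 CPM at P11 and 848 CPM at P56. Endothelial-like cells were next at P11, at 761 CPM, and lay below lining fibroblast-like cells at P56, at 454 CPM. At P18, when under 50 cells of either vascular class were recovered, connective-tissue fibroblast-like cells were highest. The 41 mural-like cells at P11 gave an interval of 859 to 1039 CPM, above that of the endothelial-like cells. Lining fibroblast-like cells had 639 CPM and 509 CPM, connective-tissue fibroblast-like cells 494, 435 and 351 CPM, and tendon fibroblast-like cells 403, 359 and 392 CPM. Monocyte or macrophage-like cells had 392 CPM at P11 and 172 CPM at P18, and neutrophil-like cells at P18 14.1 CPM. Chondrocyte-like cells, at 157 CPM and 205 CPM, and mineralising cells, at 187 CPM and 209 CPM, were the lowest of the mesenchymal classes. The log2 ratio of P56 to P11 was -0.02 (-0.05 to 0.01) over mesenchymal-like cells, -0.04 in tendon and -0.49 (-0.55 to -0.44) in connective-tissue fibroblast-like cells, none past 2-fold. At P56 the Col22a1 cluster had 694 CPM against 313 CPM in the Angptl7 cluster, a log2 difference of 1.15 (1.06 to 1.23).

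Ligand and alpha subunit were thus both found in the tendon, connective-tissue, chondrocyte-like and mineralising classes but in different proportions. Lining fibroblast-like cells at P11 had 32.3 CPM of Itga11 but 6.69 CPM of Clec11a. With 41 cells, they are not among the groups compared next. Over 23 class-by-age groups of at least 50 cells, Pearson's r of log2(CPM + 1) was 0.88 between Clec11a and Itga11, 0.55 between Itga11 and Itgb1 and 0.34 between Clec11a and Itgb1. These are descriptions over groups that share 3 libraries and their depths. Of the 13644 genes compared, Itga11 was 91st in likeness to Clec11a, and Clec11a 200th in likeness to Itga11. Within the mesenchymal classes the order differed, as tendon exceeded connective-tissue fibroblast-like cells for Clec11a at every age and lay below them for Itga11.

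**Figure D3:**
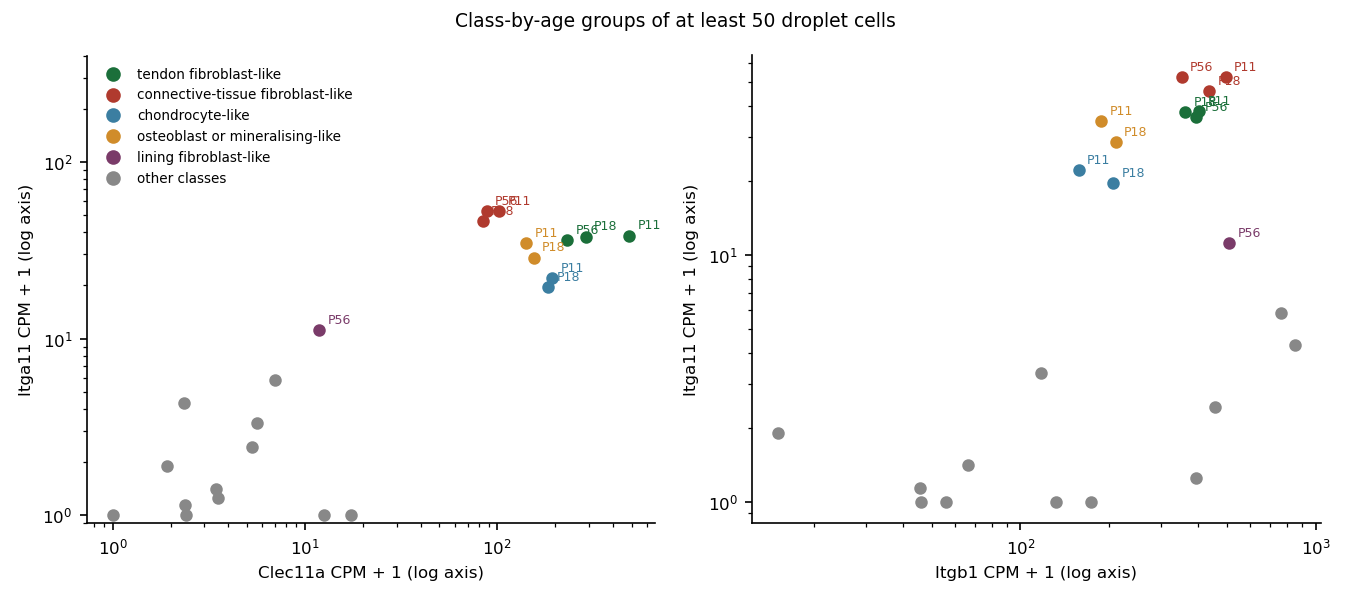
Each point is 1 class at 1 age (23 groups of at least 50 droplet cells), with log axes of CPM + 1; the left panel sets Itga11 against Clec11a and the right panel Itga11 against Itgb1. Mesenchymal classes form the upper right of the left panel, where tendon points lie to the right of and below connective-tissue points, and vascular and immune points reach high Itgb1 at low Itga11.

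Over all mesenchymal-like cells, single cells gave little sign of Clec11a and Itga11 being found together or apart. With mesenchymal-like cells thinned to 2000 counts, Itga11 was detected in 7.39% of Clec11a-positive and 8.70% of Clec11a-negative cells at P11. The values were 4.43% and 6.53% at P18, and 7.84% and 7.28% at P56, and the exact binomial intervals overlapped at each age. Both were detected in 2.57%, 1.26% and 1.68% of these cells. Among chondrocyte-like cells at P18 the shares were 1.10% (0.13 to 3.91%) and 5.39% (3.44 to 7.97%). Itga11 was thus found less often in Clec11a-positive cells there, with intervals that overlapped only narrowly. This difference was not tested, and the class holds the Matn1 and Msmp clusters, which differed in Itga11. Itgb1 was detected in 48.6% of Itga11-positive and 52.9% of Itga11-negative mesenchymal-like cells at P11. At this depth the absence of a count in a cell does not show absence of the transcript.

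The other alpha subunits that pair with Itgb1 were read from a list of 12. In mesenchymal-like cells 2 of the 12 rose and 3 fell 2-fold from P11 to P18, and none rose and 1 fell from P11 to P56. Over all genes 4.99% rose and 8.12% fell to P18, and 5.63% rose and 7.44% fell to P56. The median log2 ratios of the list were -0.25 and -0.15, beside -0.20 and 0.02 over all genes. Itga2, another collagen-binding subunit, was the gene that fell to P56, from 76.4 to 19.4 CPM, and it was at 15.8 CPM at P18. In tendon fibroblast-like cells Itga2 was 142, 59.5 and 33.1 CPM. Itga10, the collagen-binding subunit best known from cartilage, was 24.5, 98.1 and 17.0 CPM in mesenchymal-like cells, and 86.2 CPM and 130 CPM in chondrocyte-like cells. In tendon fibroblast-like cells Itga10 rose from 9.89 CPM to 39.5 CPM by P18 and 37.2 CPM by P56. Itga1, the remaining collagen-binding subunit, was 44.3, 20.8 and 37.5 CPM in mesenchymal-like cells but 645 CPM in mural-like cells at P11. Of the 4 collagen-binding subunits, Itga11 thus had the highest class in connective-tissue fibroblasts, Itga2 in tendon, Itga10 in mineralising and chondrocyte-like cells, and Itga1 in mural-like cells. Itgav and Itga5, subunits that bind RGD-containing proteins such as fibronectin, are shown for comparison. Itgav was 76.3, 69.6 and 64.2 CPM and Itga5 69.8, 76.3 and 71.6 CPM, neither past 2-fold.

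**Figure D4:**
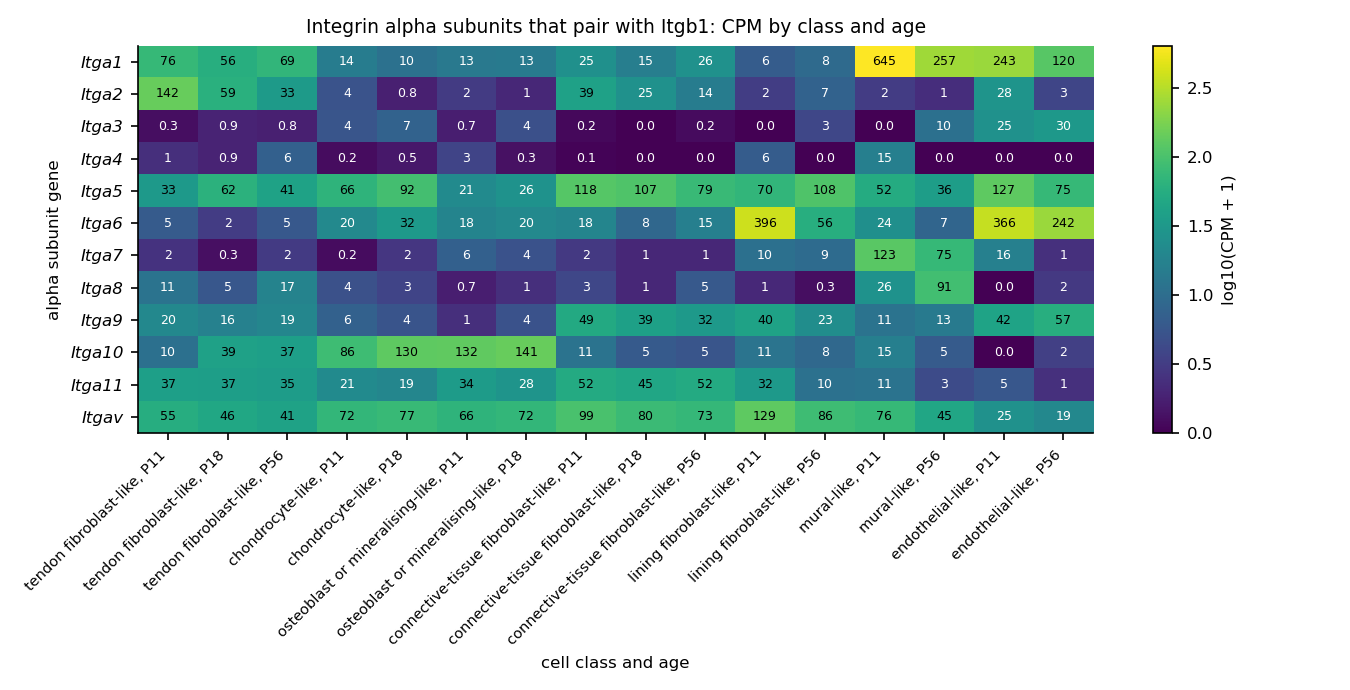
CPM of 12 integrin alpha subunit genes (rows) in 7 classes by age (columns), with colour on a log10(CPM + 1) scale and the CPM printed in each cell; the lining and mural columns at P11 hold 41 cells each. Read along a row, Itga11 is spread over the mesenchymal classes, Itga10 peaks in chondrocyte-like and mineralising cells, Itga2 in tendon at P11 and Itga1 in mural-like cells.

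Of 8 beta subunit genes, 5 had enough counts in mesenchymal-like cells, and 1 of them, Itgb4, rose to P56 while none fell, where 5.63% of all genes rose and 7.44% fell. From P11 to P18 none rose and Itgb3 fell, beside 4.99% and 8.12% of all genes. Itgb5, which pairs with the Itgav product, was 117, 98.4 and 165 CPM and Itgb3 25.5, 6.48 and 34.1 CPM. Of 9 genes listed as adaptors, which tie integrins to the cytoskeleton, or as integrin partners, none passed 2-fold from P11 to P18. By P56 only Cd151, a tetraspanin that binds integrins, rose, from 62.4 to 199 CPM, and none fell, against the same shares of all genes as for the beta subunits. Fermt2, an activator of integrins, was 145, 135 and 273 CPM.

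Fibrillar collagens are ligands of the collagen-binding integrins. Of 9 genes, 8 fell 2-fold from P11 to P56 in mesenchymal-like cells, with a median log2 ratio of -3.19, where 7.44% of all genes fell. Col1a1, the main chain of tendon and bone collagen, was 48489, 20109 and 4231 CPM. Col1a2 was 38301, 15789 and 4190 CPM. Col2a1, the cartilage collagen, was 12130, 30944 and 27.3 CPM, while chondrocyte-like cells numbered 261, 617 and none. The part of these cell numbers in the collagen counts was not tested. Col2a1, Col11a1 and Col11a2 were among the 8 that fell to P56, here and in both fibroblast classes below. From P11 to P18, 5 of the 9 fell and Col2a1 rose, where 8.12% and 4.99% of all genes did. In tendon fibroblast-like cells, and again in connective-tissue fibroblast-like cells, 8 of 9 fell to P56, where 6.53% and 8.16% of all genes fell, the latter being the class where Itga11 was at 51.6 and 51.5 CPM.

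A list of 10 osteogenic and Wnt target genes was read because osteolectin acts on bone formation. In mesenchymal-like cells 9 of 10 rose from P11 to P18 and 5 of 10 fell from P11 to P56, with median log2 ratios of 2.12 and -0.85. Over all genes 4.99% rose and 7.44% fell in those comparisons. Ibsp, a matrix protein of mineralising tissue, was 303, 3064 and 34.2 CPM, and Spp1, or osteopontin, 453, 3192 and 400 CPM. Bglap, or osteocalcin, was 29.5, 338 and 42.4 CPM and Alpl, the phosphatase of mineralisation, 38.9, 229 and 6.26 CPM. Axin2, a Wnt target, was 2.53, 4.30 and 3.92 CPM and did not pass. Lef1 and Tcf7 of the same list did pass to P18. Lef1 was 2.20, 16.8 and 0.125 CPM, rising to P18 and falling to P56, and Tcf7 was 1.37, 4.74 and 0.561 CPM. The mineralising class made up 95, 290 and 1 of the mesenchymal-like cells at the 3 ages, and the part of these cell numbers in the counts was not tested. In tendon fibroblast-like cells 5 of the 5 measured members rose to each later age, Ibsp from 9.47 CPM to 464 and 84.3 CPM, where 3.91% of all genes rose to P18 and 10.1% to P56. The Tnn cluster held 171 of the 908 cells of this class at P11 and 313 of 336 at P18. The part of these differing clusters in the rise was not tested. In connective-tissue fibroblast-like cells the only measured member, Spp1, fell to both ages, with log2 ratios of -1.70 and -1.08, where 2.9% and 8.16% of all genes fell.

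The genes whose pattern over the 23 groups was most like each of the 3 were taken by Pearson's r. For Clec11a they were Itgbl1 (0.97), 3632451O06Rik (0.96), Col1a2 (0.94), Kazald1 (0.94) and Pdgfrl (0.94). Itgbl1, a secreted protein with integrin-like repeats, was 389, 299 and 398 CPM in tendon fibroblast-like cells, without the lower level of Clec11a at P56. For Itga11 they were Fzd2 (0.97), Adamtsl3 (0.97), Mrc2 (0.96), Scarf2 (0.96) and Mmp2 (0.95). Fzd2 is a Wnt receptor, Mrc2 an endocytic collagen receptor and Mmp2 a gelatinase. For Itgb1 they were Cyb5r3 (0.95), Dock1 (0.94), Wasl (0.93), Extl3 (0.93) and Lmna (0.93), of which Dock1 and Wasl act on the actin cytoskeleton. With Spearman's rho 1, 0 and 1 of these 5 stayed among the likest of Clec11a, Itga11 and Itgb1.

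The Gli1-lineage plates gave 7 ages and the only test over age. Clec11a was 113, 77.0, 116, 23.3, 42.0, 50.9 and 85.5 CPM from P7 to P42, from 51, 27, 59, 9, 13, 12 and 27 counts. The level was thus lowest at P18, and the intervals at P11 and P42 overlapped. The slope on log2 age by edgeR's quasi-likelihood test was -0.39 per doubling of age (SE 0.28, adjusted p = 0.70). Without the P42 plate it was -0.89 in the same edgeR test (adjusted p = 0.82).

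Itga11 was 46.7, 39.9, 61.2, 69.8, 38.7, 67.9 and 69.7 CPM from P7 to P42, and Itgb1 491, 299, 438, 362, 252, 467 and 545 CPM. Their slopes were 0.16 (SE 0.24, adjusted p = 0.89) and -0.01 (SE 0.24, adjusted p = 0.995) in the same edgeR test. Of 4390 genes tested by edgeR, 0.0% had an adjusted p under 0.05 and 414 had an unadjusted p under 0.05. DESeq2, which gave an adjusted p for 2262 genes, called 23 rising and 105 falling. The 95% intervals of the slopes over all 7 plates, -1.01 to 0.22 for Clec11a, -0.36 to 0.67 for Itga11 and -0.53 to 0.52 for Itgb1, each include 0. In simulated plates of the same depth the test recovered 92% of 200 genes given a slope of 1.5 in either direction. It also made 9 false calls. The simulated slope was steeper than those measured for Clec11a (-0.39), Itga11 (0.16) and Itgb1 (-0.01). The simulation therefore does not show whether slopes as small as theirs would be found. None of the measured genes of the 5 lists passed.

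**Figure D5:**
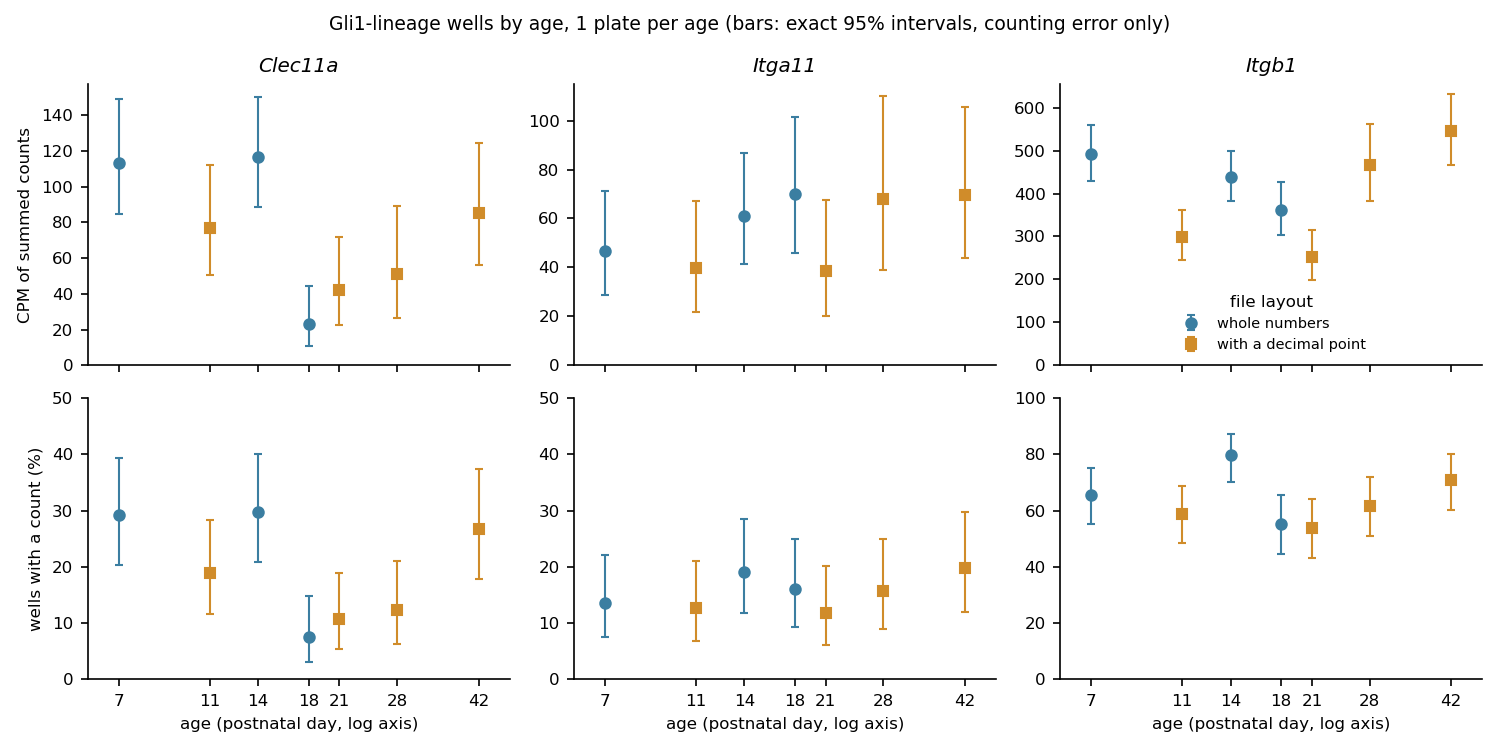
Levels (top, CPM of summed counts) and shares of wells with a count (bottom, percent) of the 3 genes on the 7 Gli1-lineage plates against age on a log axis, with exact 95% Poisson or binomial intervals; circles are files of plain whole numbers and squares files with a decimal point. Clec11a is lowest at P18, Itga11 shows no order with age, and Itgb1 is lowest at P11 and P21.

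The share of wells with a Clec11a count was 29.2, 18.9, 29.8, 7.45, 10.8, 12.4 and 26.7% from P7 to P42. Against log2 age Pearson's r was -0.30 (two-sided exact permutation p = 0.51, adjusted 0.76 over 3 relations) and Spearman's rho -0.36 (exact permutation p = 0.44, adjusted 0.67). For Itga11, at 11.8 to 19.8% of wells, r was 0.50 (exact permutation p = 0.26, adjusted 0.76) and rho 0.39 (exact permutation p = 0.40, adjusted 0.67). For Itgb1, at 53.8 to 79.8%, r was 0.01 (exact permutation p = 0.99, adjusted 0.99) and rho -0.04 (exact permutation p = 0.96, adjusted 0.96). Without P7 and P42, the ages farthest from the median, r was -0.58, -0.01 and -0.29, so that of Itga11 rested on those plates. Within the 2 file layouts, centred on each, r was -0.17, 0.77 and 0.25. Median depth ran from 2283 counts per well at P28 to 4876 at P14.

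Wells were also named by the marker lists, although several clusters came almost wholly from 1 plate. In 187 tendon fibroblast-like wells Clec11a was 132 CPM (106 to 161), in 162 chondrocyte-like wells 75.8 CPM (56.6 to 99.4) and in 161 connective-tissue fibroblast-like wells 32.2 CPM (19.4 to 50.4). Pooled over the plates, the order of the classes was that of the droplet libraries, with intervals that did not overlap. The plates differed in class numbers, with 45 tendon and 1 connective-tissue fibroblast-like well at P7. The part of this in the pooled order was not tested. Tendon fibroblast-like wells had a higher Clec11a value than chondrocyte-like wells at P7, P11, P14, P18 and P42, but the intervals overlapped at each of these ages. The values were 142 CPM and 139 CPM at P14, and 44.3 CPM and 26.2 CPM at P18, from 5 and 4 counts. At P28 the values were 41.5 CPM and 63.2 CPM, from 4 and 6 counts. Over all plates Itga11 in tendon, chondrocyte-like and connective-tissue wells was 74.2 CPM (55.6 to 97.0), 36.4 CPM (23.6 to 53.8) and 74.7 CPM (54.3 to 100). It was thus lower in chondrocyte-like wells and indistinct between the fibroblast classes. Itgb1 was 479 CPM, 252 CPM and 497 CPM in the same order. A count of Itga11 was found in 21.6% of 125 wells with Clec11a and 14.0% of 522 wells without it, with overlapping intervals and median depths of 4679 and 3343 counts.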

How the data were processed

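Droplet and plate files hold whole-number counts per gene and cell or well, as the authors deposited them. Build mm10 is named in the submitters' processing notes, and droplet software 3.1.0 (P11, P18) or 3.0.2 (P56) per the file headers. Aligner and read filters are not given in the sources used here, nor whether plate counts are of molecules or reads. Cells under 500 genes or over 10% mitochondrial counts were dropped, and the 70, 233 and 211 cells of highest scrublet score were removed as doublets, since the automatic threshold marked 1, 2 and 6. The 3 droplet libraries held 44104990, 53725468 and 40082499 counts and the plates 240498 to 507431. Cells were clustered together (scanpy 1.11.5, Leiden resolution 1, 2000 variable genes, 30 components) and named from marker lists, so names rest on the same expression values. Counts were summed per class and age. A class-by-age comparison took genes with at least 100 counts over the ages. Plate slopes used edgeR 4.0.16 (R 4.3.3, glmQLFit, TMM, at least 10 counts in 4 of 7 libraries, Benjamini-Hochberg), tested on simulated data. Intervals cover counting error only. Each age was 1 pooled library, so p-values measure the scatter of plates about a line. The genes, lists and tests were chosen with earlier results of these data known. Named genes were the 3 genes, the collagen-binding alpha subunits, up to 4 members of each list with high CPM and the 5 genes of likest pattern, while others were named after their values were seen. Alternatives changed filters, doublets, clustering, class names, scaling, thinning and plates.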

Additional observations from a re-analysis of the deposited data

Results flagged for a closer look

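Between P11 and P18 the plates and the pooled droplet mesenchymal-like cells differed in direction for both receptor subunits. On the Gli1-lineage plates the log2 ratio of P18 to P11 for Itga11 was 0.81 (95% counting interval -0.18 to 1.85), whereas in droplet mesenchymal-like cells it was -0.58 (-0.74 to -0.42). For Itgb1 the plate ratio was 0.27 (-0.10 to 0.65) and the droplet ratio -0.61 (-0.66 to -0.56). The plate values took all kept wells, and the droplet classes differed in number between the ages. Within droplet classes the Itgb1 ratio was 0.39 in chondrocyte-like, 0.17 in mineralising, -0.16 in tendon and -0.19 in connective-tissue fibroblast-like cells. In the same order the Itga11 ratio was -0.18, -0.29, -0.02 and -0.20. The part of the class numbers was not tested. Both plate intervals include 0, each age is 1 library in either assay, and the difference between assays was not tested. Clec11a had the same direction in both, at -1.73 (-3.00 to -0.59) on the plates and -0.56 (-0.62 to -0.51) in the droplets. No plate stood apart from the other 6 for any of the 3 genes by Dixon's criterion (critical value 0.568).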

How the results depend on the processing

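No paired analysis was possible because no age had more than 1 library, which left nothing to pair. Ratios below are on the log2 scale, and the causes of these shifts were not tested. Of 54 alternative ratios between ages over all mesenchymal-like cells, 53 kept their direction, the exception being Itgb1 from P11 to P56 at 0.00 with no doublets removed. All 63 alternative ratios of tendon to connective-tissue fibroblast-like cells did so. Within classes, P56 to P11 ratios turned under some alternatives, with ranges of -0.23 to 0.55 for Clec11a and -0.12 to 0.18 for Itga11 in connective-tissue, and of -0.39 to 0.02 for Itga11 and -0.18 to 0.18 for Itgb1 in tendon fibroblast-like cells. With the strict cell filter (at least 1000 genes, at most 5% mitochondrial counts), the P18 to P11 and P56 to P11 ratios were -0.33 and -1.30 for Clec11a, -0.87 and -0.43 for Itga11, and -0.68 and -0.13 for Itgb1. Tendon to connective-tissue ratios of Clec11a were then 2.86, 2.18 and 1.04 by age, that of Itga11 at P56 was -0.87, and r of the share of wells turned to 0.030 for Clec11a and -0.13 for Itga11, whose slope was -0.10. With the lenient filter (at least 200 genes, at most 20%), tendon to connective-tissue ratios were 2.40 at P11 and 1.69 at P56 for Clec11a and 0.39 at P56 for Itgb1, whose r was -0.072 and slope 0.00047. With no doublets removed the P56 ratios were 1.59 and 0.32 for Clec11a and Itgb1. At resolution 0.5 they were 2.42 for Clec11a at P11 and -0.76 for Itga11 at P18, and at resolution 2, at P56, 1.24, -0.78 and 0.22 for Clec11a, Itga11 and Itgb1. With each cell named by its own score, Clec11a had 2.61, 2.52 and 1.82 by age and Itgb1 -0.39 at P11. With each library clustered alone, Clec11a had 2.75, 2.29 and 1.51 and Itga11 at P56 -0.77. A mean over cells gave -0.90 for Clec11a from P11 to P56, -0.39 for Itga11 to P18, and -0.54 and -0.083 for Itgb1. TMM scaling gave -0.41 for Clec11a and -0.46 for Itgb1 from P11 to P18.

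On the plates, leaving out each library in turn gave slopes of -0.89 (without P42) to -0.21 (without P7) for Clec11a, 0.08 to 0.20 for Itga11 and -0.21 to 0.28 for Itgb1, and 0 genes past the threshold each time. The Itgb1 slope, near 0, turned positive with mesenchymal-like wells alone (0.050), library totals alone (0.082), at least 50 counts in every library (0.045, where neither other gene could be tested), linear age (0.0049 per day) and file layout as a term (0.23). Without the 2 ages farthest from the median, r was -0.0080 for Itga11 and -0.29 for Itgb1. Within layouts, r was 0.33 for Clec11a in files with decimals and -0.17 for Itgb1 in those without. With wells thinned to 1000 counts, rho for Itga11 was 0.79 (exact permutation p = 0.048, adjusted 0.14). DESeq2 called 128 genes and edgeR with no filter beyond 1 count 307, none of them Clec11a, Itga11 or Itgb1. DESeq2 gave no adjusted p for Itga11, which therefore could not have been called by it. Depth, with as few as 9 Clec11a counts on a plate, limits what these slopes can show.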
